A study of Homo sapiens with 4 samples.

Results

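The 8 genes described here make up the core of the aryl hydrocarbon receptor (AHR) response: the receptor AHR and its partner ARNT, the inducible enzymes CYP1A1, CYP1A2, CYP1B1 and NQO1, and the feedback genes AHRR and TIPARP. They were picked by symbol from a table of 60048 human genes, because indole-3-acetic acid, the auxin used in the experiment, is a tryptophan derivative known as a ligand of AHR. Each symbol matched 1 row. Nascent RNA was captured after a 20 min pulse of the uridine analogue 5-ethynyl uridine (EU, 0.5 mM) and sequenced, from the human colorectal carcinoma line HCT116 with the genotype RAD21-mAC. In this line the cohesin subunit RAD21 carries a tag through which auxin directs the protein to degradation. The control group (treatment DMSO) and the auxin group (0.5 mM indole-3-acetic acid, 3 h) had 2 libraries each. No group used here met auxin without the tagged RAD21, so exposure to an AHR ligand and loss of RAD21 cannot be told apart. The promoter that drives the auxin receptor protein, the number of clones and whether replicates were separate cultures are not given in the sources used here. The p-values therefore measure only the spread between these libraries, estimated in large part from other genes of like signal.

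AHR rests in the cytoplasm in a complex with HSP90 and other chaperones, enters the nucleus when it binds a ligand such as dioxin or an indole, pairs with ARNT and binds DNA at the xenobiotic response element, whose core is GCGTG. The CYP1 enzymes it induces oxidise aromatic compounds, including the ligands themselves. AHRR, a relative of AHR that represses it, and TIPARP (PARP7), an enzyme that ADP-ribosylates AHR, are induced by the same receptor and restrain it.

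For 7 of the 8 genes a promoter sequence was found by symbol in the RefSeq table of GRCh38.p14; CYP1B1 was not found. The 250 bases before the start site are shown for the CYP1A pair, which lie head to head but differ in signal, and for the feedback pair, which moved in opposite directions. Where a gene had several starts, the one nearest to the gene's start in the deposited table was used. Capitals mark the core GCGTG or its reverse complement CACGC.
CYP1A1, chr15:74725529-74725778, minus strand: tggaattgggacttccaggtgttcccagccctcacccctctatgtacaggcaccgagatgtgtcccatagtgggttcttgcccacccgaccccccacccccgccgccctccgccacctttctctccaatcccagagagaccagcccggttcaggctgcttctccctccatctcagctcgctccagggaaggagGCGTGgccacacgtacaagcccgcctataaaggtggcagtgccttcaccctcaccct
CYP1A2, chr15:74748595-74748844, plus strand: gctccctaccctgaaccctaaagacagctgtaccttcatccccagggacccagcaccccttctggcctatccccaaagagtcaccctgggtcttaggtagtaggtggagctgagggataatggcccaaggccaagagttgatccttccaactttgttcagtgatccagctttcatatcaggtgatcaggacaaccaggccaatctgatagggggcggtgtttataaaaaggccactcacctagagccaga
AHRR, chr5:321464-321713, plus strand: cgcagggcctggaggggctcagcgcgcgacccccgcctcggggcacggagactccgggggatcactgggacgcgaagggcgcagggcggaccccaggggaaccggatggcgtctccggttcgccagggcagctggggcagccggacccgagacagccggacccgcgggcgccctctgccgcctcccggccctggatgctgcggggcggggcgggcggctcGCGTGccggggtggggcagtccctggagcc
TIPARP, chr3:156674340-156674589, plus strand: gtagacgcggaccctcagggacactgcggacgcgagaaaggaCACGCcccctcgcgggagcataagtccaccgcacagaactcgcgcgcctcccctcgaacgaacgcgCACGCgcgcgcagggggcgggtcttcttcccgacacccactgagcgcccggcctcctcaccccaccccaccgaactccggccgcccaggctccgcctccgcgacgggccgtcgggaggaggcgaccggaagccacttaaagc
The core occurred once before CYP1A1 (at -57, counted back from the start site), once before AHRR (at -30) and in 2 places before TIPARP (at -208 and -142, on the opposite strand), and at no place in this window of CYP1A2, NQO1, AHR or ARNT. Of 35116 RefSeq promoters, 32.2% held the core at least once on either strand in the same window, and 10.2% held 2 or more. The longer form TNGCGTG, of which the core is a part, was found before AHRR alone among the 7 (bases TCGCGTG at -32), and in 4.52% of all promoters. The antioxidant element TGACNNNGC was found before ARNT (bases TGACTCCGC at -183) and in 10.9% of all promoters. A match of letters is not evidence of binding, and the well-studied dioxin-responsive enhancer of CYP1A1 lies farther upstream than the window shown.

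The deposited values are labelled read counts but are not whole numbers, and were read as a scaled signal over the whole span of each gene. What was summed is not given in the sources used here, so the depth in reads is not known and counting intervals cannot be given. The 4 libraries summed to between 61135244 and 93113007 on that scale, both extremes being auxin libraries, and were brought to a common scale by a trimmed mean of log ratios (divisors 0.812 to 1.21). A gene entered the limma fit if its scaled signal was at least 10 in at least 2 libraries, which 39358 genes and 7 of the 8 members met. Of the genes tested, 0.696% had a limma adjusted p under 0.05, 0.32% higher and 0.376% lower with auxin, and 3991 genes (10.1%) had an unadjusted p under 0.05. These calls rest on the trend of variance with signal that limma fitted: without it, 0 genes passed and 3184 had an unadjusted p under 0.05, and the limma adjusted p of CYP1A1 was 0.464. The epithelial keratins KRT8, KRT18 and KRT19, the adhesion proteins EPCAM and CDH1 and the intestinal factor CDX2 lay between 124 and 2063 scaled units per kb of span. VIL1, ASCL2 and KRT20 lay at 22.4, 4.17 and 3.38 per kb, and CDX1, LGR5 and CEACAM5 lay below 1 per kb. The summed signal per kb of 12 epithelial markers was 5159 to 5669 in control and 4558 to 4704 in auxin, against 33.7 to 42.3 and 52.0 to 57.7 for 4 fibroblast markers, 20.7 to 21.3 and 26.6 to 28.0 for 4 hepatocyte markers, 8.86 to 12.3 and 13.0 to 15.5 for 4 leukocyte markers, and 5.98 to 6.90 and 7.31 to 9.21 for 3 endothelial markers. KRT18 and KRT19, at means of 2051 and 2063 per kb, made up most of the epithelial sum. None of the markers tested passed, and ASCL2, CD3E and COL1A2 did not meet the filter. No marker was at 0 (the lowest was COL1A2, at 0.078 per kb). What part the shifts in these sums had in the results was not tested.

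The members did not all move in the same direction. Of the inducible enzymes, 3 of the 3 that could be tested rose with auxin (CYP1A1, CYP1B1 and NQO1), and the feedback pair moved apart, AHRR up and TIPARP down. Neither AHR nor ARNT passed the test. In all, 4 of 7 tested members were called higher, beside 0.32% of all tested genes, and 1 was called lower, beside 0.376%. The members were chosen with earlier results of these data known, so these counts are a description and not a test of enrichment. Both auxin libraries lay above both control libraries for 5 members, as they did for 18.6% of all tested genes, and below them for 1, as for 19.6%. The median log2 fold change was 0.99 over the 7 members and 0.0087 over all genes tested.

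**Figure D1:**
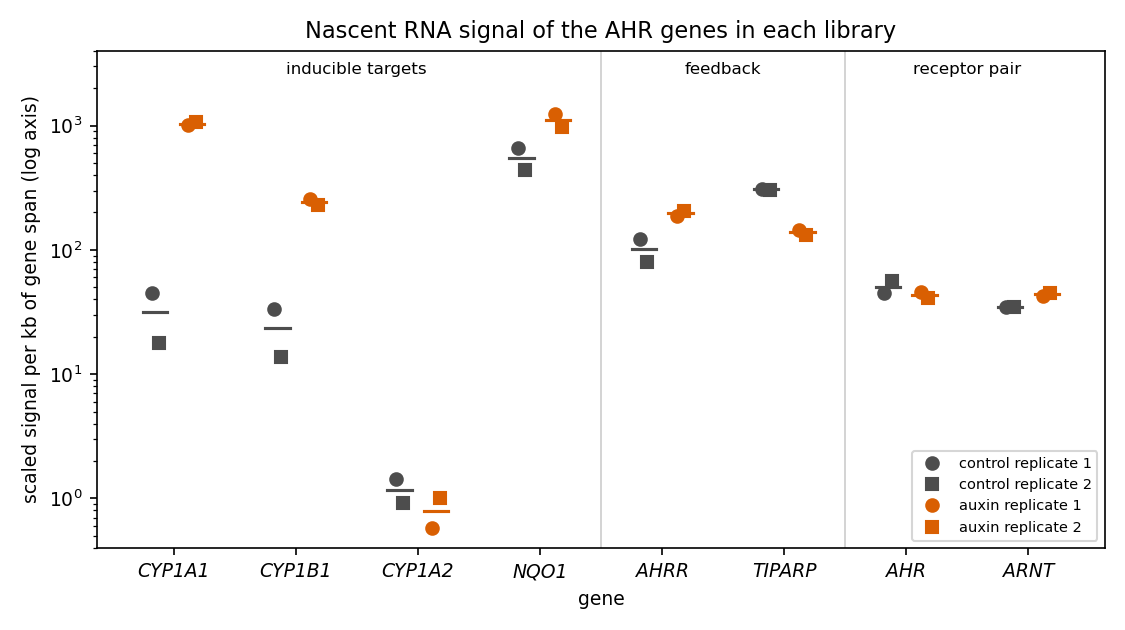
Scaled signal per kb of gene span (log axis) for each of the 8 genes in each of the 4 libraries, with circles for replicate 1, squares for replicate 2 and bars for the mean of each group. The auxin libraries of CYP1A1 sit at 1004 and 1066 per kb, above control libraries at 45.2 and 17.9, while those of TIPARP sit below both control libraries and those of AHR overlap them.

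CYP1A1, the classic dioxin-inducible monooxygenase (ENSG00000140465, GRCh38 chromosome 15, 74719542 to 74725536, minus strand), had a scaled signal of 271 and 108 in the control libraries and 6019 and 6388 in the auxin libraries. The groups were far apart, and the control libraries differed from each other much more than the auxin libraries did. The fold between single libraries ranged from 22.2 to 59.4 and the ratio of the group means was 32.8. Its log2 fold change was 5.17 (SE 0.34, 95% interval 4.41 to 5.94, limma adjusted p = 4.24e-04), the highest of all 39358 genes tested. Leaving out control replicate 1 gave 5.84 and leaving out control replicate 2 gave 4.51, both still called. Per kb of span, CYP1A1 moved from the 40.9th to the 97.5th percentile of tested genes between the control and the auxin mean.

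CYP1B1, the CYP1 enzyme best known from tissues outside the liver (ENSG00000138061, chromosome 2, 38067509 to 38076151, minus strand), had 291 and 118 in control and 2213 and 1999 in auxin. Its groups did not overlap either. The log2 fold change was 3.50 (SE 0.35, 95% interval 2.73 to 4.27, limma adjusted p = 0.00241), which ranked 5 among all 39358 genes tested and 2 among the 29158 whose mean reached 50. With control replicate 1 left out the value was 4.15, and with control replicate 2 left out it was 2.85, both still called. Per kb, CYP1B1 rose from the 36.7th to the 82.3rd percentile.

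The CYP1 pair differed in how far they rose. Within a library the ratio of 2 genes does not depend on how libraries are scaled. The signal per kb of CYP1A1 was 1.34 and 1.32 times that of CYP1B1 in the control libraries, and 3.92 and 4.61 times in the auxin libraries. The log2 ratio was 0.41 ± 0.021 and 2.09 ± 0.16 in the respective groups (control, auxin; SD, n = 2 each), a difference of 1.68 that exceeded the spread within either group (two-sided exact permutation p = 0.333, the smallest that 2 against 2 libraries can give).

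CYP1A2, the close relative of CYP1A1 that is chiefly a liver enzyme (ENSG00000140505, chromosome 15, 74748845 to 74756607, plus strand), begins 23.3 kb from the start of CYP1A1, with 0 annotated genes between them. Its scaled signal was 11.1 and 7.11 in control and 4.47 and 7.83 in auxin, or 1.17 ± 0.37 and 0.79 ± 0.31 per kb (SD, n = 2 per group). The groups overlapped, and the control mean per kb equalled the 10.5th percentile of tested genes. With a single library at 10 or more it was not tested, and with no filter on low values its log2 fold change was -0.51 (SE 0.63, limma adjusted p = 0.914). CYP1A1 stood at 1035 ± 43.6 per kb in the same auxin libraries. The counting error of values as low as those of CYP1A2 is not known here.

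NQO1, a quinone reductase that is a target of both AHR and the oxidative stress factor NRF2 (ENSG00000181019, chromosome 16, 69709401 to 69726668, minus strand), was the member with the highest control signal per kb. It had 11296 and 7629 in control and 21481 and 16702 in auxin. Both auxin libraries exceeded both control libraries, by 1.48 to 2.82 times. The log2 fold change was 1.03 (SE 0.19, 95% interval 0.61 to 1.44, limma adjusted p = 0.0432). The call was lost with no filter on low values (0.065), with a mean of at least 50 (0.0609), on the deposited scale and without control replicate 2, where the log2 fold change was 0.75 (0.179). The lncRNA gene AC092115.2 lies within its span.

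AHRR, the repressor (ENSG00000063438, chromosome 5, 321759 to 422774, plus strand), had 12338 and 8103 in control and 18996 and 20644 in auxin. The auxin libraries lay close together above both control libraries. The log2 fold change was 0.99 (SE 0.18, 95% interval 0.59 to 1.38, limma adjusted p = 0.0406). This call too was lost with no filter (0.0617), with a mean of at least 50 (0.0581), on the deposited scale and without control replicate 2, where the log2 fold change was 0.68 (0.123). AHRR lies wholly within the readthrough gene PDCD6-AHRR, so their signals cannot be separated. PDCD6, the gene on the other side of that readthrough, ends 6784 bases before AHRR begins. It had 12316 and 9392 in control and 12202 and 11839 in auxin, for a log2 fold change of 0.16 with SE 0.14 (limma adjusted p = 0.841). PDCD6-AHRR as a whole, which sums over both, stood at 0.65 (SE 0.15, limma adjusted p = 0.107).

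TIPARP (ENSG00000163659, chromosome 3, 156674590 to 156706770, plus strand) was the member that fell. It had 9912 and 9779 in control and 4627 and 4249 in auxin, with each group tight and the groups well apart. The auxin signal was lower by 2.11 to 2.33 times between single libraries. The log2 fold change was -1.15 (SE 0.13, 95% interval -1.43 to -0.87, limma adjusted p = 0.00356), and by p TIPARP ranked 44th of all genes tested. Leaving out any single library kept the log2 fold change between -1.22 and -1.10. On the deposited scale it was -1.17, with a larger SE of 0.41 and a limma adjusted p of 0.668.

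Control and auxin libraries therefore put the feedback pair in opposite orders. TIPARP exceeded AHRR per kb by 2.52 and 3.79 times in the control libraries, and AHRR exceeded TIPARP by 1.31 and 1.55 times in the auxin libraries. The log2 ratio of AHRR to TIPARP was -1.63 ± 0.42 for control and 0.51 ± 0.17 for auxin (SD, n = 2 per group), a difference of 2.14 (two-sided exact permutation p = 0.333, the smallest possible).

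The receptor pair had the smallest fold changes of the 7 tested members. AHR (ENSG00000106546, chromosome 7, 17298652 to 17346147, plus strand) had 2129 and 2647 in control and 2178 and 1960 in auxin, and the groups overlapped. Its log2 fold change was -0.20 (SE 0.17, 95% interval -0.57 to 0.18, limma adjusted p = 0.82). AC019117.1 overlaps almost the whole of AHR and could not be read apart from it. ARNT (ENSG00000143437, chromosome 1, 150809713 to 150876599, minus strand) had 2317 and 2311 in control and 2867 and 3004 in auxin. Its groups did not overlap and were each tight, but the log2 fold change of 0.34 (SE 0.15, 95% interval 0.018 to 0.67, limma adjusted p = 0.452, unadjusted p = 0.0404) did not pass the test. ARNT stood at 0.77 and 0.62 times AHR per kb in control and at 0.93 and 1.09 times in auxin, a difference of 0.54 in log2 ratio (two-sided exact permutation p = 0.333, the smallest possible).

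**Figure D2:**
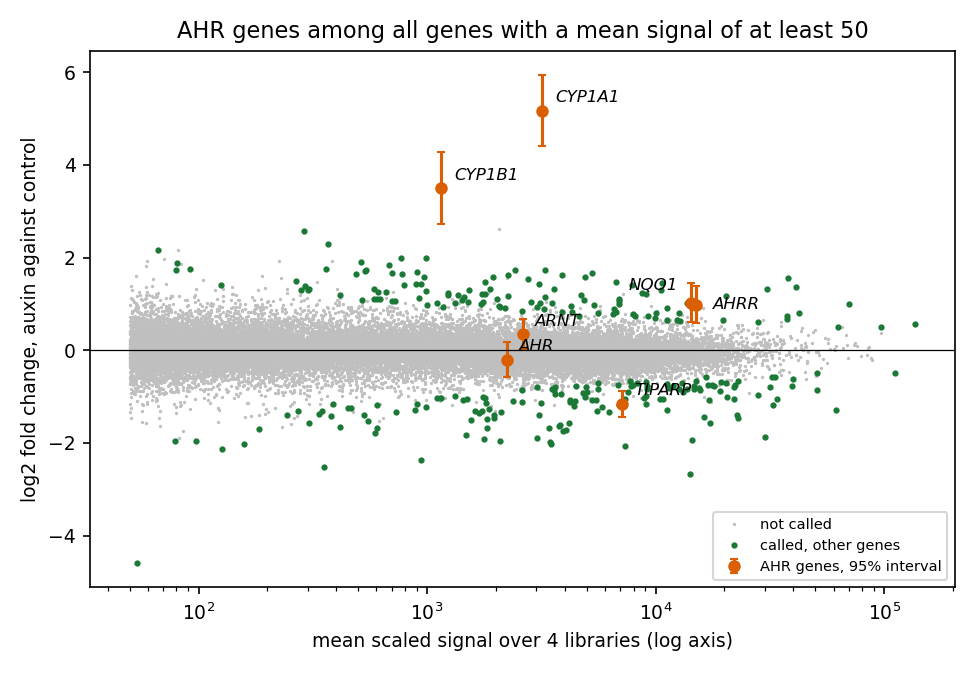
Log2 fold change, auxin against control, against mean scaled signal (log axis) for the 29158 tested genes whose mean reached 50, with called genes in green and 7 AHR genes in orange with 95% intervals from the limma fit. CYP1A1 at 5.17 and CYP1B1 at 3.50 stand above all other genes, NQO1 and AHRR lie near 1, and TIPARP lies at -1.15.

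Ordered by signal per kb in control, the members ran from NQO1 (548 ± 150) and TIPARP (306 ± 2.91) through AHRR (101 ± 29.6), AHR (50.3 ± 7.72), ARNT (34.6 ± 0.060), CYP1A1 (31.6 ± 19.3) and CYP1B1 (23.6 ± 14.2) to CYP1A2 (SD, n = 2 each). The control libraries of CYP1A1, at 45.2 and 17.9, overlapped those of AHR, ARNT and CYP1B1, while ARNT lay below AHR in both. In auxin the order became NQO1 (1106 ± 196), CYP1A1 (1035 ± 43.6), CYP1B1 (244 ± 17.5), AHRR (196 ± 11.5), TIPARP (138 ± 8.32), ARNT (43.9 ± 1.44) and AHR (43.6 ± 3.25), again with CYP1A2 last. NQO1 and CYP1A1 overlapped there, as did ARNT and AHR.

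The 4 members that rose were the ones with the widest gap between the control libraries among the 7 tested. Control replicate 1 exceeded control replicate 2 by 2.52 times at CYP1A1, 2.47 times at CYP1B1, 1.52 times at AHRR and 1.48 times at NQO1. On the log2 scale these differences fell at the 99.7th, 99.7th, 94.0th and 92.8th percentiles of the same difference over the same 29158 genes, where the SD was 0.41. Between the same libraries TIPARP and ARNT differed by 0.019 and 0.0035 on the log2 scale, and AHR was lower in replicate 1 (-0.31). Between the auxin libraries the largest fold among the tested members was 1.29, at NQO1. Gaps of this kind were not particular to members that rose. The NRF2 targets HMOX1 and GCLC also stood higher in control replicate 1, by more than AHRR and NQO1 did. HMOX1 overlapped between the groups and GCLC lay lower in auxin. Other NRF2 targets, such as ABCC2 and AKR1C1, were not higher in control replicate 1. The cause of the difference between the control libraries was not tested.

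Few genes beside the members passed the test. Of 14 genes that flank a member as its nearest tested neighbour, 1 was called higher and 0 lower, with a median log2 fold change of 0.081, beside 0.32% and 0.376% of all genes. The gene called was CYP1B1-AS1, a lncRNA gene that starts 42 bases from CYP1B1 and runs the other way (ENSG00000232973, chromosome 2, 38076194 to 38202696, plus strand). It had 545 and 432 in control and 1247 and 1673 in auxin, for a log2 fold change of 1.57 with SE 0.21 (limma adjusted p = 0.0116). Both auxin libraries lay well above both control libraries. The limma adjusted p was 0.0688 on the deposited scale and 0.0989 without control replicate 2. TIPARP has a neighbour of the same kind, TIPARP-AS1, which lies 143 bases away on the opposite strand. Its values were 76.1 and 110 in control and 77.9 and 105 in auxin, and these overlapped while TIPARP itself fell (log2 difference -0.013 with SE 0.31, limma adjusted p = 0.997). METTL15P1, a pseudogene 7113 bases past the end of TIPARP, had 132 and 185 in control and 70.8 and 82.8 in auxin, which did not pass the test (log2 difference -1.02 with SE 0.29, limma adjusted p = 0.192).

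Around CYP1A1, 0 of 20 other genes tested within 250 kb were called, beside 0.696% of all tested genes, a share at which 0 calls among so few is unremarkable. These 20 genes had log2 fold changes from -0.35 to 1.25 and a median of 0.17. The upper end was AC091230.1, a weak gene at 19.7 and 34.5 in control and 70.7 and 57.0 in auxin (SE 0.40, limma adjusted p = 0.263). The nearest tested genes, EDC3 and CSK, stood at 0.15 and 0.092. Within 250 kb of AHRR (21 genes), TIPARP (9), AHR (4) and ARNT (30), 0 genes were called. Near NQO1, 1 of 16 was called: NFAT5, named here after its value was seen, which fell from 25660 and 30150 in control to 14370 and 17936 in auxin (log2 difference -0.79 with SE 0.13, limma adjusted p = 0.0328). Whether reads were assigned by strand is not given in the sources used here, so genes that overlap on either strand may share signal.

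**Figure D3:**
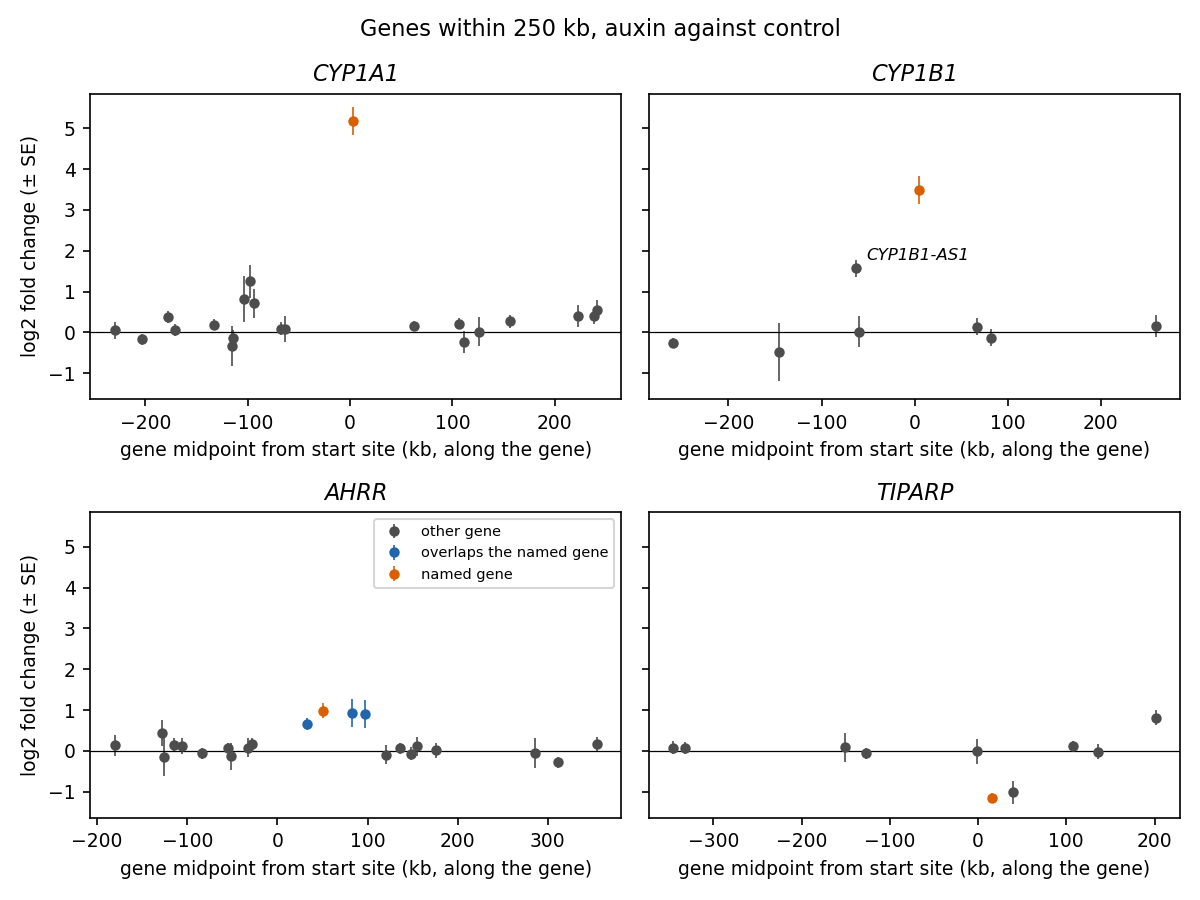
Log2 fold change with its SE for each tested gene within 250 kb of CYP1A1, CYP1B1, AHRR and TIPARP, placed by the distance of its midpoint from the start site of the named gene along that gene's direction. The named gene is orange, genes overlapping it are blue, and CYP1B1-AS1 at 1.57 is the one other called gene in the 4 panels.

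Other genes of the pathway were read as fixed lists, chosen with earlier results of these data known. Among 14 tested of 15 further genes known as AHR targets (UGT1A1 was too low to test), 1 was called higher and 0 lower, 5 had an unadjusted p under 0.05, and the median log2 fold change was 0.26. Over all genes tested, 0.696% were called, 10.1% had an unadjusted p under 0.05 and the median was 0.0087. Those 5 genes were SLC7A5, STC2, SERPINB2, NFE2L2 and CCNG2, all higher with auxin. Both auxin libraries lay above both control libraries for 6 of the 14 and below them for 0, beside 18.6% and 19.6% of all tested genes. The called gene was SLC7A5, which encodes the large neutral amino acid transporter LAT1 (ENSG00000103257, chromosome 16, 87830023 to 87869507, minus strand). It had 45174 and 47869 in control and 87632 and 99428 in auxin, for a log2 fold change of 1.01 with SE 0.094 (limma adjusted p = 0.00201). The groups did not overlap, and the call was lost on the deposited scale. SERPINB2, a protease inhibitor, had the highest value of that list, 2.50 (SE 0.63, limma adjusted p = 0.144), but rested on 10.3 and 8.11 in control and 27.7 and 113 in auxin and did not pass. ALDH3A1, an aldehyde dehydrogenase counted with the CYP1 enzymes in the AHR gene battery, had 120 and 165 in control and 147 and 91.7 in auxin, which overlapped.

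The other lists held 1 call or none, and with 0.696% of all tested genes called, lists of this length would hold few calls at that share. Of 20 NRF2 targets, all tested, 1 was called higher and 0 lower, 6 had an unadjusted p under 0.05, beside 10.1% of all tested genes, and the median was 0.078. SLC7A11, OSGIN1, PIR and TXNRD1 were the higher and GCLC and ABCC3 the lower of those 6. The gene called was TXNRD1, a thioredoxin reductase, at 53469 and 50825 in control and 75560 and 71253 in auxin (log2 difference 0.49 with SE 0.087, limma adjusted p = 0.0393), a call lost without either control library, with no filter, with a mean of at least 50 and on the deposited scale. Among 11 chaperones and cofactors of AHR, 0 were called, 1 had an unadjusted p under 0.05 and the median was 0.0090. The gene with the smallest p was CREBBP, a histone acetyltransferase (0.38, limma adjusted p = 0.199). Among 13 other factors of the bHLH-PAS family, to which AHR and ARNT belong, 0 were called, 4 had an unadjusted p under 0.05 and the median was -0.15. ARNTL, the clock partner BMAL1, had the smallest p (0.71, limma adjusted p = 0.191).

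Enzymes that break down tryptophan, along routes that yield AHR ligands, gave 0 calls among 10, 3 unadjusted, and a median of -0.096. The list also holds enzymes that use up kynurenine, such as KMO and KYNU. KYAT3, a kynurenine aminotransferase, was lowest in p (0.54, limma adjusted p = 0.143). P450s of other families and their partners gave 0 calls among 23, 0 unadjusted, and a median of -0.035, with CYP3A7, a fetal liver P450, lowest in p (0.83, limma adjusted p = 0.498). The other members of the PARP family, to which TIPARP belongs, gave 0 calls among 16, 5 unadjusted, and a median of -0.056, with PARP4 lowest in p (0.43, limma adjusted p = 0.167). These counts come from the same limma fit, in which 10.1% of all tested genes had an unadjusted p under 0.05 and 0.696% were called.

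**Figure D4:**
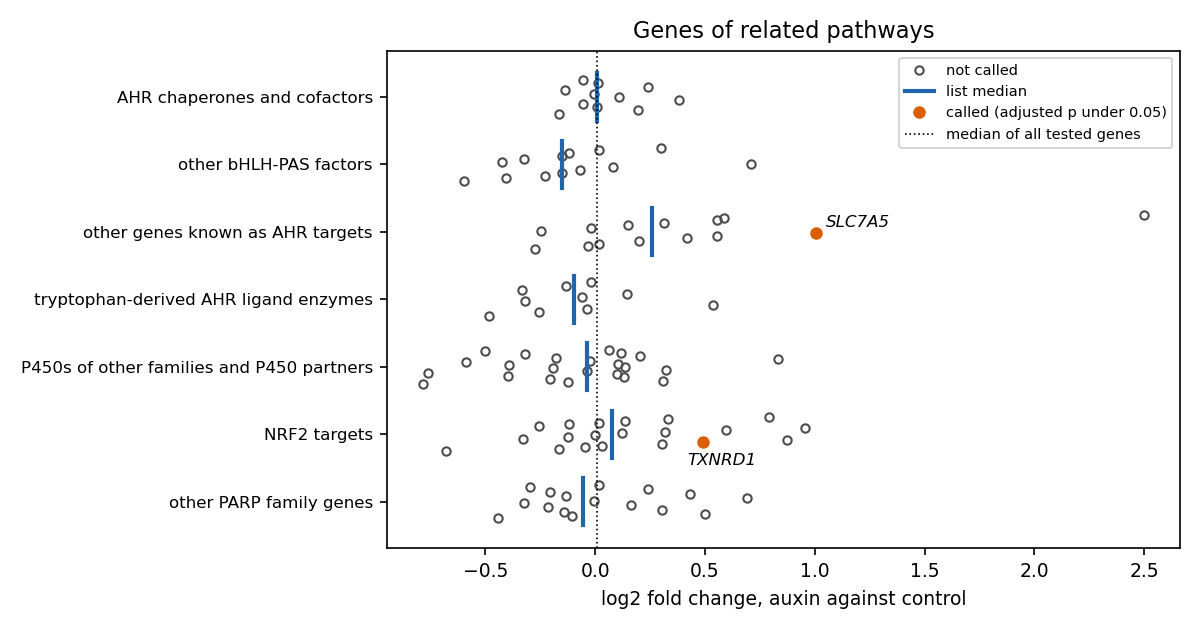
Log2 fold change, auxin against control, of each tested gene in the 7 lists, with called genes filled in orange, list medians as blue bars and the median of all tested genes as a dotted line. SLC7A5 at 1.01 and TXNRD1 at 0.49 are the called genes.

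Genes outside the 8 members were ranked by how like that of a member their pattern over the 4 libraries was. Likeness was the Euclidean distance between log2 profiles centred on the control mean, over the 29158 genes whose mean reached 50. Matches to CYP1A1, TIPARP and AHRR were picked on these same values, so their fold changes and p-values describe the match and are no separate result. None came near CYP1A1: the nearest was ASB2 at a distance of 3.96, followed by AC093519.2 (4.27) and COMETT (4.38). ASB2 had 64.1 and 94.3 in control and 330 and 667 in auxin (log2 difference 2.58 with SE 0.34, limma adjusted p = 0.0108), which was 0.0753 without control replicate 1. AC093519.2 stood at 2.30 (limma adjusted p = 0.0285), lost without either control library (0.137 and 0.154), and was 2.99 without auxin replicate 1 and 1.60 without auxin replicate 2. COMETT at 2.62 did not pass (0.0959). It ranged from 1.72 to 3.51 when each library was left out in turn, and passed without either auxin library and on the deposited scale.

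TIPARP had close matches in the lncRNA genes AC025576.3 (distance 0.034) and COL18A1-AS2 (0.079) and the keratin gene KRT80 (0.098). They fell by 1.15, 1.19 and 1.11 on the log2 scale (limma adjusted p = 0.0201, 0.0238 and 0.00857), and each call was lost without either control library and on the deposited scale. AHRR was nearest to IL23A (0.11), AC092053.4 (0.12) and LUARIS (0.13), none of which passed the test (limma adjusted p = 0.317, 0.26 and 0.215).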

How the data were processed

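The authors deposited 1 table labelled read counts, whose values per gene and library were read as a scaled signal. Per the submitters' processing notes, Trimmomatic 0.39, Bowtie2 2.4.5, deepTools 3.5.1 and the builds hg38 and dm6 were used, in roles not given in the sources used here. Per the labels' protocols, fly S2 RNA (20 µg) was mixed into 200 µg of human RNA before capture, but the factor behind each column is not given. Within a library, every low value (below about 20 steps) was an integer number of steps (0.847, 1.04, 0.728 and 1.36 for control 1 and 2 and auxin 1 and 2; tolerance 0.03 steps). A step was not taken as a read, because 2 to 8 genes of at least 10 kb held 1 step while 141 to 221 held 2. One control column is misspelt and was assigned by its replicate number.

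Libraries were scaled with an unweighted TMM factor, trimming 30% of genes by log ratio and 5% by level at each end. A pseudocount of 1 was added, and log2 values entered limma 3.58.1 (lmFit, eBayes with trend) in R 4.3.3, with Benjamini-Hochberg adjustment over all genes tested at 0.05. Fold changes on this scale are understated for low genes. The fit was also run on simulated data with independent noise, which held no differences shared by replicate number, and no result here rests on it. Coordinates are 1-based on GRCh38: of 37808 symbols matched to RefSeq, 99.8% overlapped that gene. Other tools were Python 3.11.15, pandas 2.3.3 and matplotlib 3.10.9. By rule, named genes were all members, up to 5 called genes per list or the one with the smallest p, and called or overlapping neighbours. The 3 nearest profiles of CYP1A1, TIPARP and AHRR were named too. Other genes named from the lists or near the members fell outside this rule. Alternatives were other scalings, pseudocounts, filters, variance models, a replicate block and leaving out each library. The members and lists were chosen with earlier results of these data known.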

Additional observations from a re-analysis of the deposited data

How the results depend on the processing

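CYP1A1, CYP1B1 and TIPARP kept their direction under every alternative run, and so did the other tested members. In part this was fixed in advance. Other filters, the fit without the intensity trend and the replicate block left the log2 fold change of each member as it was. Leaving out a library could hardly reverse it either where the groups did not overlap. Median-ratio scaling, scaling by library total and pseudocounts of 0.1 and 10 changed no call of a member, and no scaling moved the median of all genes by over 0.1. Trimmed-mean and median-ratio scaling centre the typical log ratio by design. The median under them therefore cannot show a change shared by all genes. On the deposited scale 55 genes were called (28 higher, 27 lower, 47 of them among the 274), with 2 members higher and 0 lower. AHRR (0.97), NQO1 (1.01) and TIPARP (-1.17) were no longer called, nor was any of the other AHR targets (0) or NRF2 targets (0). That fit left the libraries at their unequal totals, and fold changes stayed close to the main fit. The SE of AHRR, NQO1 and TIPARP was 0.42, 0.42 and 0.41 there, beside 0.18, 0.19 and 0.13 in the main fit. With no filter, and with a mean of at least 50, 2 members were called higher, since AHRR (0.99) and NQO1 (1.03) missed the threshold. Without the intensity trend, limma called 0 genes and 0 members in either direction (3184 genes at an unadjusted p under 0.05): CYP1A1 (5.17), CYP1B1 (3.50), NQO1 (1.03), AHRR (0.99) and TIPARP (-1.15) missed the threshold with limma adjusted p from 0.464 to 0.552.

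The labels do not say whether a shared replicate number marks a shared culture or day. The difference between replicates correlated between control and auxin with r = 0.233 across all tested genes and 0.462 across those whose mean reached 50; genes are not independent replicates, and 2 numbers do not settle whether they pair the samples. Adding the replicate block raised the calls to 4223 (1925 higher and 2298 lower, all 274 included), ARNT (0.34) and COMETT (2.62) passed the threshold and no member lost its call; the lists then held 1 chaperone or cofactor, 6 bHLH-PAS factors, 5 other AHR targets, 3 ligand enzymes, 2 P450s or partners, 9 NRF2 targets and 6 PARP genes. That fit gave limma an infinite prior df.

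Without one library at a time, where the lone library of a group is assumed to vary like the other group, 71 to 681 genes and 2 to 4 members (higher) were called, CYP1A1 ranged from 4.51 to 5.84, CYP1B1 from 2.85 to 4.15, AHRR from 0.68 to 1.29 and NQO1 from 0.75 to 1.31. Called genes ranged from 0 to 1 for bHLH-PAS factors, 1 to 2 for other AHR targets, 0 to 1 for P450s and 0 to 5 for NRF2 targets. The cause of these changes was not tested.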
